A study of Homo sapiens with 9 samples.

Results

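The genes described here are caspases, the adaptors that bring them to death receptors and the inhibitors that restrain them. The members are CASP6, CASP8, CASP9, CASP10, FADD, CFLAR, XIAP and BIRC3, taken by gene symbol, and they are 8 of the 59050 gene symbols in the count table. They were measured in MEC1, an established cell line of chronic lymphocytic leukemia (CLL), a leukemia of mature B cells. The sample titles all begin with MECPGK, and the sources used here do not explain the letters PGK. RNA was sequenced from 9 samples, of which 3 were cultured in 2D, 3 were bioprinted in a 3D hydrogel scaffold and collected at day 7 (3D_7d) and 3 were bioprinted and collected at day 14 (3D_14d). The sample labels give no collection day for the 2D cultures. Culture in 3D and time in culture therefore cannot be told apart in a comparison with 2D. RNA of the scaffolds was obtained with TRIzol followed by a column kit, and RNA of the 2D cultures with the column kit and no TRIzol step, so culture in 3D and extraction method cannot be told apart in a comparison with 2D. No source used here says that the replicates were separate cultures, and p-values then measure only the spread between these samples, which may be technical. The comparisons ask how expression in the bioprinted cells differed from 2D at each time point, and between the time points.

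Caspases are proteases that dismantle a cell in apoptosis. Ligand-bound death receptors recruit the adaptor FADD, which gathers the initiator caspases CASP8 and CASP10, while damage that releases cytochrome c from mitochondria activates the initiator CASP9 on the APAF1 apoptosome; both routes lead to executioner caspases. CFLAR competes with CASP8 for FADD, XIAP blocks CASP9 and the executioners, and BIRC3 is a ubiquitin ligase of receptor complexes and NF-kB signalling that is known in CLL for recurrent mutation.

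Total counts ranged from 54662799 to 85968686 per sample. Levels below are CPM, which are counts relative to the total of the library, with totals scaled by edgeR's TMM factors. The smallest count of a member in any library was that of XIAP in replicate 3 of 3D_7d, at 327. In 23 of the 24 combinations of member and group, the coefficient of variation between replicates exceeded the one that counting alone gives on average. The exception was CASP9 in 2D, with 0.765% between replicates and 2.72% from counting. All 8 members passed the filter of a CPM above 1 in at least 3 samples, as did 13463 genes in all. A gene is called up-regulated or down-regulated where edgeR's quasi-likelihood test gave an adjusted p (Benjamini-Hochberg, across every tested gene) no higher than 0.05.

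Of the 8 genes listed as B cell markers, 7 were above 1 CPM in every library. Their summed level was 2649, 2658 and 2642 CPM in the 3 samples in 2D, 3646, 3082 and 2883 CPM at day 7, and 3992, 3723 and 3622 CPM at day 14, with MS4A1 the most abundant gene by its mean over the 9 samples and CD5 below 1 CPM throughout. At day 14 the mean of CD79A, 1312 CPM, exceeded that of MS4A1, 1070 CPM. Over 2D, day 7 and day 14, the means were 509, 630 and 1312 CPM for CD79A, 163, 143 and 357 CPM for CD79B and 542, 250 and 333 CPM for CD22. The label of a B cell line was thus matched by all of these markers other than CD5. Of 7 T cell markers, the summed level was 357, 333 and 312 CPM in 2D, 489, 473 and 460 CPM at day 7 and 718, 709 and 529 CPM at day 14. Nearly all of it came from TRAC, while CD3D was at 0 counts in 7 of the 9 libraries. The 6 myeloid markers summed to 1.70, 2.21 and 2.34 CPM in 2D, 1.18, 2.70 and 1.29 CPM at day 7 and 5.15, 5.08 and 3.89 CPM at day 14, with ITGAM the most abundant on average over the 9 samples and CD68 at 0 in every library. In replicate 1 of day 7, ITGAM made up 0.173 of the 1.18 CPM. The 5 stromal markers summed to 11.4, 10.3 and 11.4 CPM in 2D, 5.33, 3.42 and 2.34 CPM at day 7 and 7.89, 2.68 and 6.33 CPM at day 14, mainly from COL1A1. The part of these levels in the results below was not tested. In RNA of whole cultures, fewer cells of a kind and less RNA per cell cannot be told apart.

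In 3D_7d vs 2D, CFLAR and CASP9 were up-regulated and XIAP was down-regulated. That made 2 of 8 members called higher, where 22.2% of all tested genes were, and 1 of 8 called lower, where 21.2% were. In 3D_14d vs 2D, CFLAR, CASP9 and CASP6 were up-regulated and XIAP was again down-regulated. There 3 of 8 members were called higher beside 19.0% of all genes, and 1 of 8 lower beside 17.2%. Between the time points, CASP8 was lower at day 14 than at day 7, 1 of 8 members beside 13.6% of all genes, and 0 of 8 were called higher by edgeR beside 14.5%; 0 members were higher with DESeq2 as well, and 1 of the 8 members, CASP8, had an unadjusted p under 0.05. The comparisons with 2D share the 2D samples and are not independent. With 8 members, these counts describe single genes and no property of the set. The 2D and day 7 samples did not overlap in 6 of 8 members, beside 64.6% of all tested genes, those of 2D and day 14 in 5 of 8, beside 49.7%, and those of the time points in 1 of 8, beside 39.3%. The median log2 fold change of the members was 0.34 at day 7 and 0.24 at day 14, beside -0.0039 and 0.02 over all tested genes.

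**Figure D1:**
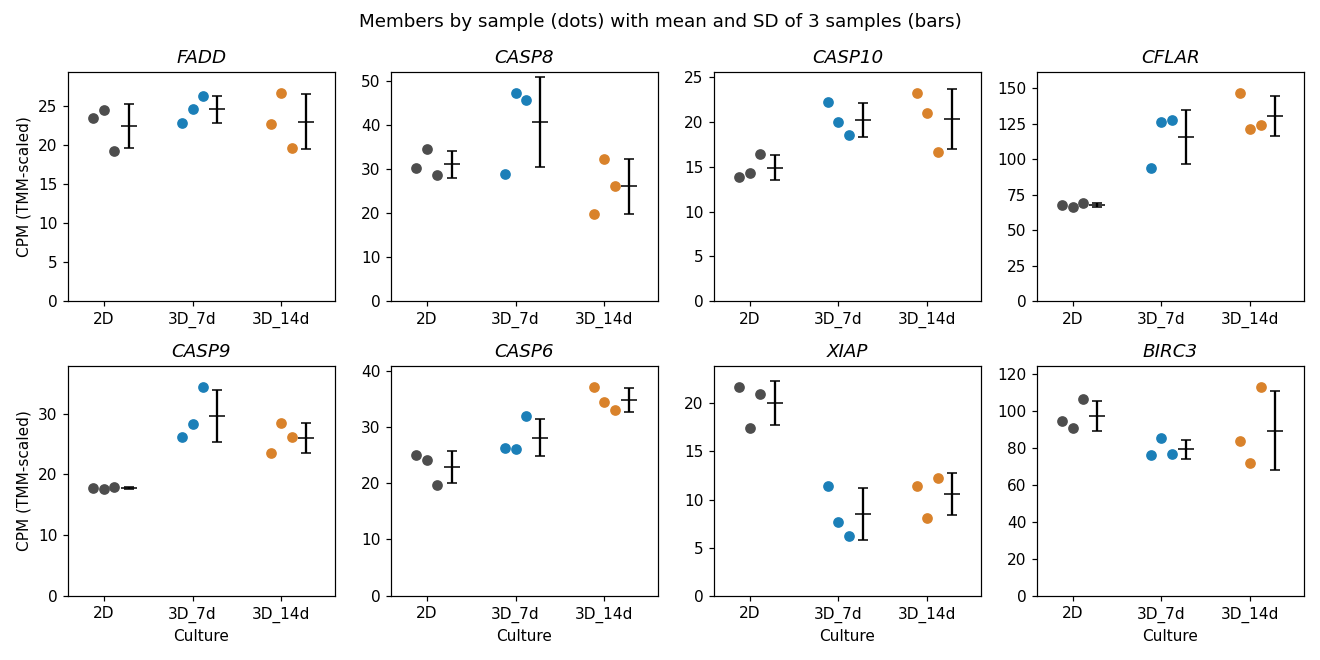
CPM of the 8 members (y axis, from 0) in each of the 9 samples by culture (x axis); dots are samples, the bar beside them is the mean with the SD of 3 samples. CFLAR and CASP9 lie higher and XIAP lower in every 3D sample than in every 2D sample.

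FADD, the adaptor that links death receptors to initiator caspases, was measured at 23.6, 24.6 and 19.3 CPM in 2D, at 22.9, 24.7 and 26.3 CPM at day 7 and at 22.7, 26.8 and 19.7 CPM at day 14. The groups overlapped, and the lowest sample of 2D lay beside the lowest sample of day 14. FADD was not called, with log2 fold changes of 0.13 at day 7 (95% interval -0.24 to 0.50, adjusted p = 0.557) and 0.04 at day 14 (interval -0.33 to 0.41, adjusted p = 0.887). In the annotation, 53.0% of the exonic bases of FADD lie under an antisense gene, and all bases of that gene lie within FADD. Its count of 0 does not show that FADD was unaffected, since the strand setting is not given in the sources used here and reads of shared bases may have been assigned to neither gene. The part of such reads in the level of FADD was not tested.

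CASP8, the initiator caspase activated on FADD, had 30.2, 34.6 and 28.6 CPM in 2D, 28.9, 47.3 and 45.6 CPM at day 7 and 19.7, 32.4 and 26.1 CPM at day 14. Replicates 2 and 3 of day 7 were the highest of all 9 samples, replicate 1 of day 14 was the lowest, and every pair of groups overlapped. CASP8 was not called against 2D, with a log2 fold change of 0.38 at day 7 (SE 0.22, adjusted p = 0.176) and -0.26 at day 14 (SE 0.22, adjusted p = 0.387). At day 7 it was called without replicate 1 of day 7 (log2 fold change 0.56, adjusted p = 0.0458), and had a log2 fold change of 0.23 without replicate 2 (adjusted p = 0.501), the ends of the range of adjusted p over the alternatives. From day 7 to day 14 it fell by 0.64 on the log2 scale (SE 0.22, adjusted p = 0.0464). This call was lost in 9 of 17 alternative analyses, among them those without replicate 1 of day 14 (log2 fold change -0.46, adjusted p = 0.115), without replicate 2 of day 7 (-0.51, adjusted p = 0.172) and without replicate 3 of day 7 (-0.53, adjusted p = 0.155). It was also lost without replicate 3 of day 14 (adjusted p = 0.091) and without replicate 1, 2 or 3 of 2D (adjusted p = 0.0669, 0.0649 and 0.0641). The other analyses that lost it were those with filterByExpr (adjusted p = 0.0598) and with only the 6 samples of both time points (0.0939). Over all alternatives the adjusted p ranged from 0.0105 to 0.172.

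CASP10, the initiator caspase closest in kind to CASP8, had 13.9, 14.3 and 16.5 CPM in 2D, 22.2, 20.0 and 18.5 CPM at day 7 and 23.3, 21.1 and 16.7 CPM at day 14. Every 3D sample lay above every 2D sample, although replicate 3 of day 14 exceeded the highest 2D sample only slightly. The log2 fold change was 0.44 at day 7 (SE 0.18, adjusted p = 0.0592) and 0.45 at day 14 (SE 0.18, adjusted p = 0.0644), so CASP10 missed the threshold at both time points. It passed in 4 of 17 alternatives at day 7, where the adjusted p ranged from 0.0196 to 0.27, and in 3 at day 14, where it ranged from 0.0193 to 0.378. Without replicate 3 of day 14, it passed at both time points, with adjusted p = 0.0342 at day 7 and 0.0206 at day 14. Without replicate 1 of day 14, it passed at day 7 (adjusted p = 0.0319).

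CFLAR encodes c-FLIP, a relative of CASP8 without its protease activity, which competes for FADD. It had 67.7, 66.1 and 69.0 CPM in 2D, 93.7, 126 and 127 CPM at day 7 and 147, 121 and 124 CPM at day 14. The 2D samples lay close together, all 6 samples in 3D lay above them, and the time points overlapped with each other. CFLAR rose 1.71-fold at day 7 (log2 fold change 0.78, SE 0.15, adjusted p = 0.0014) and 1.93-fold at day 14 (log2 fold change 0.95, SE 0.15, adjusted p = 0.000535). Its call held at both time points in all 17 alternatives, with log2 fold changes from 0.62 to 1.02 and from 0.74 to 1.19. CFLAR, CASP10 and CASP8 lie side by side on chromosome 2, with gaps of 6193 and 4036 bases, and only CFLAR of these neighbours was called against 2D. In edgeR's test CASP10 narrowly missed the threshold, with adjusted p = 0.0592 at day 7 and 0.0644 at day 14. CFLAR was not tested against CASP10. Exons of CFLAR share 9.86% of their bases with other annotated genes, whose counts over all samples were 7, 93 and 0. The gene with 0 counts lies wholly within CFLAR on the same strand, and reads of shared bases may have been counted for neither gene, so these counts do not show that the level of CFLAR was unaffected.

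CASP9, the initiator caspase of the mitochondrial route, had 17.8, 17.6 and 17.9 CPM in 2D, 26.1, 28.2 and 34.4 CPM at day 7 and 23.4, 28.4 and 26.2 CPM at day 14. All 3D samples were above all 2D samples, and the time points overlapped. CASP9 rose 1.67-fold at day 7 (log2 fold change 0.74, SE 0.16, adjusted p = 0.00278) and 1.47-fold at day 14 (log2 fold change 0.55, SE 0.16, adjusted p = 0.0174). The call at day 7 held in all 17 alternatives. At day 14 it was lost without replicate 1, 2 or 3 of 2D (adjusted p = 0.07, 0.0848 and 0.0749), without a filter on low counts (0.145) and with total counts as the scaling (0.117), and over all alternatives the adjusted p ranged from 0.00483 to 0.145. Its exons share 2.30% of their bases with the antisense gene CELA2B, which had 24 counts over all samples, with the same doubt on shared reads. Total counts moved the median of all genes by -0.16 at day 7 and -0.21 at day 14 on the log2 scale.

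CASP6, an executioner caspase that cleaves nuclear lamins, had 25.0, 24.1 and 19.6 CPM in 2D, 26.2, 26.1 and 31.9 CPM at day 7 and 37.1, 34.4 and 33.0 CPM at day 14. The groups did not overlap, with 2D lowest and day 14 highest. The difference was called at day 14, with a 1.52-fold rise (log2 fold change 0.60, SE 0.16, adjusted p = 0.0108), and not at day 7 (log2 fold change 0.29, SE 0.16, adjusted p = 0.154). The difference between the time points themselves was not called (log2 fold change 0.31, SE 0.16, adjusted p = 0.162). The call at day 14 was lost without replicate 3 of 2D (adjusted p = 0.0864), with total counts as the scaling (0.0572) and without a filter (0.0737), in a range from 0.00206 to 0.0864. Its exons share 5.51% of their bases with the antisense gene MCUB, and reads of the shared bases cannot be separated where the strand setting is not given in the sources used here. MCUB had 87085 counts over all samples against 15511 of CASP6, and its own log2 fold change at day 14 was 0.07 (adjusted p = 0.697), and the value at day 7 was -0.40 (adjusted p = 0.0166). The part of MCUB reads in the level of CASP6 was not tested.

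XIAP, the inhibitor that binds CASP9 and the executioners directly, had 21.7, 17.4 and 20.9 CPM in 2D, 11.5, 7.67 and 6.22 CPM at day 7 and 11.4, 8.10 and 12.2 CPM at day 14. Every 3D sample was below every 2D sample, and the time points overlapped. On the log2 scale, XIAP fell by 1.24 at day 7 (SE 0.25, adjusted p = 0.00152) and fell by 0.92 at day 14 (SE 0.24, adjusted p = 0.0109). The call held in all 17 alternatives at both time points, with log2 fold changes from -1.55 to -1.11 and from -1.12 to -0.74. XIAP shares no exonic base with another annotated gene.

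BIRC3, also known as cIAP2, had 94.8, 90.8 and 106 CPM in 2D, 76.0, 85.4 and 76.6 CPM at day 7 and 83.8, 71.8 and 113 CPM at day 14. All samples of day 7 lay below those of 2D, while day 14 held both the lowest and the highest sample of all 9. BIRC3 was not called, with a log2 fold change of -0.29 at day 7 (SE 0.17, adjusted p = 0.173) and -0.12 at day 14 (SE 0.17, adjusted p = 0.605). At day 7 it passed in 1 of 17 alternatives, the fit of the 6 samples of that comparison (adjusted p = 0.0202, in a range up to 0.487).

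**Figure D2:**
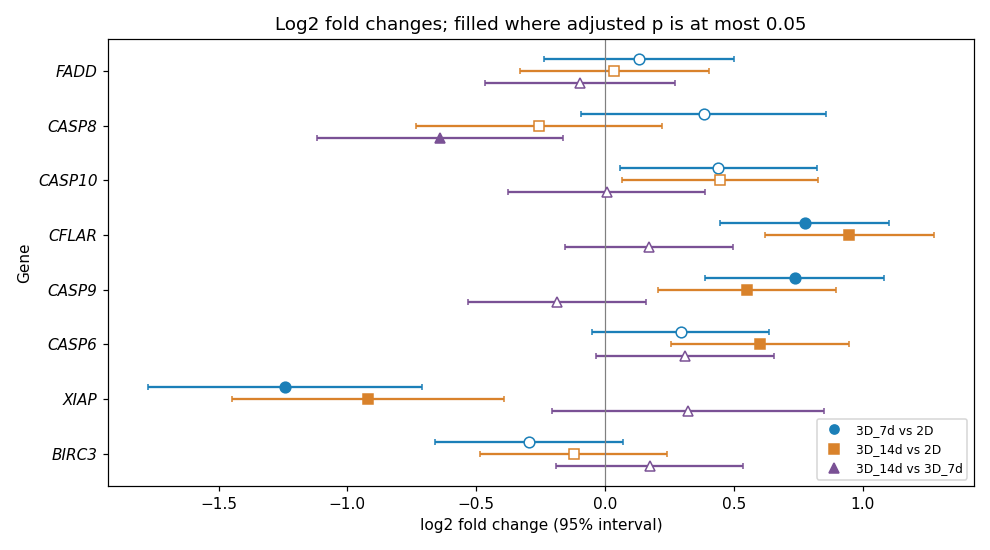
Log2 fold changes (x axis) of the 8 members (y axis) in the 3 comparisons with 95% intervals; symbols are filled where the adjusted p was at most 0.05. CFLAR and CASP9 lie right of 0 and XIAP left of 0 at both time points against 2D, and CASP8 is filled only for day 14 vs day 7.

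CASP9 and its inhibitor XIAP were called in opposite directions at both time points, and the 250 bases before their most upstream RefSeq start (GRCh38.p14) are shown for that reason. The window of CASP9 is chr1:15524791-15525040 on the minus strand, that of XIAP is chrX:123859458-123859707 on the plus strand, and neither holds an exonic base of its gene in the count table. Capitals mark the GC box GGGCGG and the CCAAT box CCAAT on either strand.
CASP9: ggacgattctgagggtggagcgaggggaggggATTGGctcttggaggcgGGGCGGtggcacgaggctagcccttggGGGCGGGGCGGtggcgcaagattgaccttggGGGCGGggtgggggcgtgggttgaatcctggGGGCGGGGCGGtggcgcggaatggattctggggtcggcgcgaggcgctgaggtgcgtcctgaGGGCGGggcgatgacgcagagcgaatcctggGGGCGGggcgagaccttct
XIAP: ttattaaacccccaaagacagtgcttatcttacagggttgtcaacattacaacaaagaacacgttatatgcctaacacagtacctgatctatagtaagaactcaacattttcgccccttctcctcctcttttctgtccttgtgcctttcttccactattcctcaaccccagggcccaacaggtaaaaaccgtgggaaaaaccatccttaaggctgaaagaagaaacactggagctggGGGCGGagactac
The CASP9 window holds 8 GC boxes, some of them overlapping, and 1 CCAAT box, with 71.6% G and C, and the XIAP window holds 1 GC box, with 44.8% G and C. Of 27305 promoters of the same length, 42.2% hold the GC box and 33.0% the CCAAT box. The set of promoters used here held 7 of the 8 members, and CASP10 had no matching entry in that set. In the same windows of these members, the GC box was found in 6 and the kappaB motif in 2, CFLAR and BIRC3, beside 9.58% of all promoters for kappaB. Exons of the member in the count table cover 225 of the 250 bases of the CFLAR window, which lies within the gene, 138 for CASP6, 133 for FADD, 34 for BIRC3 and 20 for CASP8. The AP-1 motif TGANTCA, the CRE motif TGACGTCA, the E-box CACGTG and the TATA box TATAAA were found in 0 of 7, beside 6.57%, 1.75%, 6.46% and 11.2% of all promoters. These are matches of letters on both strands and show no binding.

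Divided by exonic length in kilobases (RPKM), the order of the members in 2D was BIRC3 with 14.1 ± 1.16 (SD, n = 3), CASP6 with 12.9 ± 1.62, FADD with 12.2 ± 1.51, CASP8 with 7.91 ± 0.786, CASP9 with 3.85 ± 0.0295, CFLAR with 3.28 ± 0.0685, XIAP with 2.24 ± 0.254 and CASP10 with 2.23 ± 0.205. As counted, BIRC3, CASP6 and FADD did not differ from each other beyond their spread, nor did XIAP and CASP10. CASP6 had the highest level of the members at both 3D time points. At day 7 it had 15.8 ± 1.87 RPKM, above FADD with 13.4 ± 0.934 and BIRC3 with 11.5 ± 0.765, and these did not overlap. At day 14 CASP6 had 19.6 ± 1.17 RPKM, above BIRC3 with 13.0 ± 3.07 and FADD with 12.5 ± 1.92, which overlapped. XIAP was the lowest at both time points, with 0.945 ± 0.303 RPKM at day 7 and 1.18 ± 0.244 at day 14. The length used is the union of the exons of all annotated transcripts, 20587 bases for CFLAR against 1778 for CASP6, so the order also depends on which transcripts were present, which was not tested. The length of FADD includes the 53.0% of bases shared with an antisense gene, where reads may be uncounted, so its level may be understated and its place in the order is uncertain.

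Ratios between members within a library do not depend on the scaling between libraries. The ratio of CFLAR to CASP8, the competitor against the protease, was -1.22, -1.45 and -1.12 in 2D (log2 of counts per kilobase), -0.69, -0.97 and -0.91 at day 7 and 0.51, -0.48 and -0.14 at day 14. The 3 groups did not overlap, and replicate 1 of day 14 was the only library with more CFLAR than CASP8 per kilobase. The level of this ratio depends on the length used, the union of exons, with 20587 bases for CFLAR and 3936 for CASP8. In counts not divided by length, CFLAR exceeded CASP8 in every library. The mean log2 ratio was 0.41 higher at day 7 and 1.22 higher at day 14 than in 2D. The ratio of CFLAR to FADD was 0.62 and 0.91 higher, again with no overlap with 2D.

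The ratio of XIAP to CASP9, the inhibitor against its target, was -0.67, -0.97 and -0.73 in 2D, -2.15, -2.84 and -3.42 at day 7 and -2.00, -2.77 and -2.05 at day 14 on the log2 scale. All 3D libraries lay below all 2D libraries, and the time points overlapped. The mean log2 ratio fell by 2.01 at day 7 and fell by 1.48 at day 14. The ratio of BIRC3 to XIAP, of the IAP family members, was 0.99 and 0.79 higher on the log2 scale at day 7 and day 14. In an exact two-sided permutation test of 3 against 3 samples, all 8 comparisons with 2D gave p = 0.1, the smallest p this design allows, and an adjusted p of 0.133 over 12 tests, as did CFLAR to CASP8 between the time points. With 3 samples a group, no ratio could pass the threshold in this exact test. A p of 0.1 here shows only that the groups did not overlap. Against 2D, 64.6% of single tested genes did not overlap at day 7 and 49.7% at day 14, and for ratios of other gene pairs the share was not counted. XIAP and CASP9 each lay apart from 2D already, in opposite directions, so the separation of their ratio adds nothing.

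**Figure D3:**
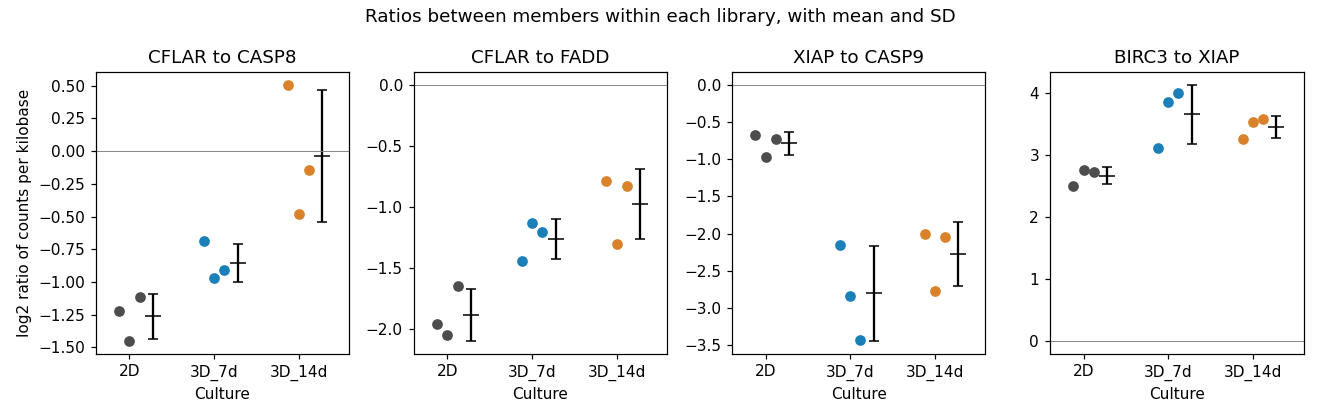
Log2 ratio of counts per kilobase (y axis) between pairs of members in each library by culture (x axis); dots are samples, bars the mean with the SD of 3 samples. CFLAR to CASP8 lies between -1.45 and -1.12 in 2D and XIAP to CASP9 between -0.97 and -0.67, apart from the 3D libraries.

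The genes whose pattern over the 9 samples was most like that of a called member were found by the root mean square difference of centred log2 CPM. They were TAF12 (0.08) and ACOT4 (0.09) for CFLAR, DDX24 (0.07) and TMEM165 (0.08) for CASP9, and ANXA4 (0.08) and PYURF (0.10) for CASP6. For CASP8 they were UGDH (0.11) and NHEJ1 (0.11), and for XIAP TEX54 (0.14) and HINT3 (0.17). XIAP itself varied by 0.60 around its mean on this scale. Some gene must lie nearest to any member, so nearness shows no link between genes. TEX54 and NHEJ1 were low, with group means of 0.839 to 2.00 CPM and 2.33 to 3.44 CPM. The call of TEX54 at day 7 was lost in 6 of 17 alternatives.

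Other genes of the pathway were counted in 8 lists with 73 genes, of which 64 were tested. In 3D_7d vs 2D, 18 were up-regulated, beside 22.2% of all tested genes, and 14 down-regulated, beside 21.2%, with a median log2 fold change of 0.14 beside -0.0039. In 3D_14d vs 2D, 18 were up-regulated beside 19.0% and 12 down-regulated beside 17.2%, with a median of 0.16 beside 0.02. The same shares of all tested genes stand beside the counts of each list below. Of the death ligands and receptors, 2 of 9 tested genes were higher and 1 lower at day 7, and 2 higher and 2 lower at day 14. At day 14 the count higher was 1 without replicate 3 of 2D or with total counts and 4 without replicate 1 of day 14, and the count lower was 1 without replicate 1 or 3 of 2D or 2 or 3 of day 14. At day 7 the count lower was 2 without replicate 1 of day 7 or 1 or 3 of day 14, and also with DESeq2 size factors, total counts, the DESeq2 Wald test and only the 6 samples. LTA, a ligand of TNF receptors, had 200 ± 23.2 CPM in 2D and rose to 663 ± 57.3 CPM by day 7 and 585 ± 129 CPM by day 14 (SD, n = 3). TNF rose at day 7 (log2 fold change 0.83, adjusted p = 0.000666), and TNFSF10, which encodes the ligand TRAIL, rose at day 14 (0.69, adjusted p = 0.00878). At day 7 TNFSF10 had a log2 fold change of -0.44 (adjusted p = 0.0575), which passed in 7 of 17 alternatives (adjusted p of 0.0199 to 0.284). The call of TNFSF10 at day 14 was lost without replicate 3 of 2D and in 2 other alternatives, with an adjusted p of 0.000543 to 0.064. TNFRSF10B, a receptor of TRAIL chosen after its values were seen, was lower at both time points (log2 fold changes -0.55, adjusted p = 0.0077, and -0.53, adjusted p = 0.0106).

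Of 7 death-fold adaptors, 1 was higher and 2 lower at day 7, and 3 were higher and 2 lower at day 14. PEA15, which binds FADD and CASP8, rose by log2 fold changes of 1.29 and 1.34. CASP8AP2, named for its binding to CASP8, fell by 1.79 at day 7 and fell by 1.84 at day 14 on the log2 scale. PIDD1, the scaffold that activates CASP2, fell by 1.03 and then fell by 1.59 against 2D. Of 8 tested kinases and ubiquitin enzymes of receptor complexes, 4 were higher at day 7 and 3 at day 14, and the rest were not called. The count at day 7 was 2 without replicate 1 or 2 of 2D or 1, 2 or 3 of day 7 and with total counts, and that at day 14 was 1 without replicate 2 of 2D and with total counts. With only the 6 samples, 1 was lower at day 7. RIPK1, the kinase of the TNF receptor complex, had log2 fold changes of 1.46 and 1.11, and CYLD, a deubiquitinase, of 1.18 and 0.65. SHARPIN, a subunit of the linear ubiquitin ligase, rose at day 14 (0.56, adjusted p = 0.021). At day 14 the call of SHARPIN was lost without replicate 1, 2 or 3 of 2D and in 3 other alternatives (adjusted p of 0.00249 to 0.0925), and that of CYLD without replicate 2 of 2D and with total counts (0.000349 to 0.0639).

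Of the 5 other caspases tested, 1 was higher at each time point and the rest were not called. At day 14, 2 were higher without replicate 2 of day 14, without a filter and with filterByExpr, and 1 was lower without replicate 3. At day 7, 2 were higher with the trend in gene length removed, an alternative chosen after seeing the data. CASP2, an initiator caspase, was higher at day 7 (log2 fold change 0.89, adjusted p = 0.00101), and CASP1, the inflammasome protease, at day 14 (1.07, adjusted p = 0.00124). Of 6 apoptosome and mitochondrial factors, 1 was higher and 2 lower at day 7, and 3 higher and 1 lower at day 14. The count higher at day 14 was 1 without replicate 2 or 3 of 2D, 3 of day 7 or 2 of day 14, and with total counts or filterByExpr. Neither gene called lower at day 7 was called without replicate 1 or 2 of 2D, 2 or 3 of day 7 or 3 of day 14, and 1 was with filterByExpr, the replicate block or the length trend removed and without replicate 3 of 2D or 2 of day 14. With total counts, 2 were lower at day 14. APAF1, the platform of CASP9, fell by 0.66 at day 7 (adjusted p = 0.0433) and fell by 0.86 at day 14 (adjusted p = 0.0154). Its call at day 7 was lost in 8 of 17 alternatives, among them those without replicate 1, 2 or 3 of 2D, 2 or 3 of day 7 or 3 of day 14, and with the replicate block, with an adjusted p of 0.00584 to 0.126. HTRA2, a mitochondrial protease chosen after its values were seen, was higher at day 14 (log2 fold change 0.45, adjusted p = 0.0457), a call lost in 13 of 17 alternatives, among them those without any of 8 of the 9 libraries, all but replicate 3 of day 14 (adjusted p of 0.0127 to 0.266). At day 7 HTRA2 was called without replicate 1 or 3 of day 14, with only the 6 samples and with the length trend removed, which made the count higher there 2. AIFM1, a mitochondrial flavoprotein, rose by log2 fold changes of 1.48 and 0.69. ENDOG, a mitochondrial nuclease, fell by 0.97 at day 7 and rose by 0.96 at day 14, and each of these calls was lost in 7 of 17 alternatives. For ENDOG the adjusted p reached 0.176 at day 7, where leaving out replicate 1 or 2 of 2D, 2 or 3 of day 7 or 2 or 3 of day 14 ended the call, and 0.184 at day 14, where replicate 2 or 3 of 2D, 3 of day 7 or 2 or 3 of day 14 did.

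Of 5 tested genes among the other IAPs and XAF1, 3 were lower at each time point, beside 21.2% and 17.2% of all tested genes, and the rest were not called. With the length trend removed, 1 was higher at each time point. The median log2 fold changes of the list, -1.03 and -0.85, are the values of XAF1, which is not an IAP. BIRC2 and BIRC6, the IAPs of the list that were not called, had log2 fold changes of 0.36 and 0.36 at day 7 and 0.06 and 0.17 at day 14. BIRC5, or survivin, which acts in cell division, had 250 ± 11.3 CPM in 2D and was lower with 121 ± 21.2 CPM at day 7 and 97.2 ± 17.1 CPM at day 14. BIRC7, or livin, fell from 27.3 ± 0.771 CPM to 0.139 ± 0.12 at day 7, where the libraries held 0 to 12 counts, and 3.94 ± 1.56 at day 14. XAF1, an antagonist of XIAP, fell by 1.03 at day 7 and fell by 0.85 at day 14 on the log2 scale, and its call at day 14 was lost without replicate 2 or 3 of 2D or 1 or 3 of day 14 (adjusted p of 0.000436 to 0.0783).

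Of 10 caspase substrates, 4 were higher and 1 lower at day 7, and 3 higher and 2 lower at day 14, where the count lower was 1 without replicate 2 or 3 of 2D or 3 of day 14, with the DESeq2 Wald test and with only the 6 samples. LMNA, the lamin that CASP6 cleaves, rose from 374 ± 17.3 CPM to 1422 ± 197 and 971 ± 196. GSN, an actin-severing protein, rose by log2 fold changes of 0.84 and 1.12, and ROCK1, a kinase activated by cleavage, fell by 0.93 at day 7 and fell by 0.91 at day 14. Of 14 NF-kB target genes, 5 were higher and 5 lower at day 7, and 3 higher and 2 lower at day 14. At day 7, 3 were lower without a filter. At day 14, 6 were higher without replicate 1 of day 14, and the count lower was 1 without replicate 3 of 2D or 2 of day 14 and 5 with total counts. TRAF1, a partner of BIRC3, and CD83, an activation marker, rose at day 7 (log2 fold changes 1.14 and 1.04), and BCL2A1, a BCL2 relative, fell by 1.28. None of these 3 was called at day 14, where the log2 fold changes were 0.25, 0.38 and -0.37, but all 3 were without replicate 1 of day 14. BCL2A1 was also called at day 14 with total counts and with the length trend removed. The lowest adjusted p at day 14 over the alternatives was 0.0125 for TRAF1, 0.0032 for CD83 and 0.00332 for BCL2A1.

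**Figure D4:**
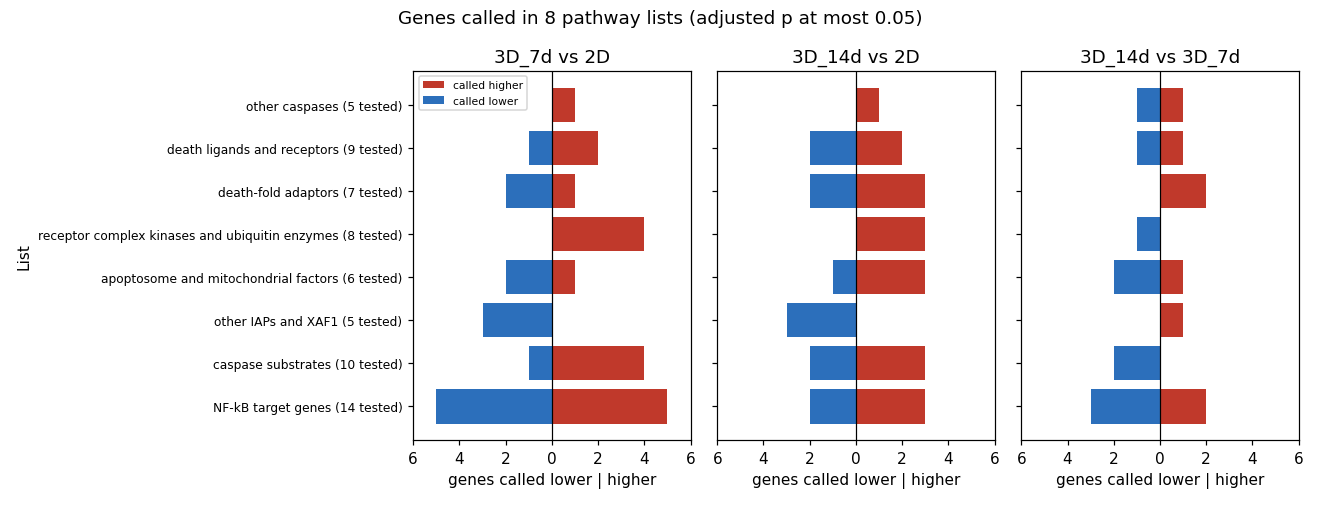
Number of genes called lower (left of 0) and higher (right of 0) on the x axis in each pathway list (y axis, with the number tested) for the 3 comparisons. The list of other IAPs and XAF1 has 3 genes called lower at each time point against 2D.

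Several library measures moved with the groups. Ribosomal protein genes took 3.76% to 4.42% of the counts in 2D, 1.53% to 1.67% at day 7 and 1.73% to 2.99% at day 14. The 100 most abundant genes of a library took 31.6% in replicate 1 of day 14, against 23.6% to 28.9% in the other libraries. Mitochondrially encoded genes took 2.30% to 2.83% in 2D, 1.44% to 1.64% at day 7 and 1.62% to 2.82% at day 14. The TMM factors were 1.06 to 1.12 in 2D, 0.962 to 0.994 at day 7 and 0.884 to 1.02 at day 14. When tested genes were divided into 5 bins by exonic length, the bin of the shortest genes had medians of -0.24 at day 7 and 0.11 at day 14 (log2 fold change), and the bin of the longest, which holds CASP10, CFLAR, XIAP and BIRC3, had -0.04 and -0.10. With the trend in length removed in each library, an alternative chosen after seeing the data, CFLAR, CASP9 and XIAP kept their calls at both time points and CASP6 was called at day 7 as well (log2 fold change 0.47, adjusted p = 0.0199), as was CASP10 at day 14 (0.63, adjusted p = 0.0193). The part of the ribosomal and mitochondrial shares and of the most abundant genes in the results was not tested.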

How the data were processed

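Counts per gene symbol were used as deposited. The authors trimmed single reads of SMART-Seq libraries with Trimmomatic 0.39, aligned them to GRCh38 (GENCODE release 31) with STAR 2.5.3a and counted them with featureCounts 1.6.4. Samples were grouped by culture, 3 in each group, and total counts were 54662799 to 85968686. The filter kept genes whose CPM exceeded 1 in 3 or more samples, and edgeR 4.0.16 in R 4.3.3 was used for TMM factors, 1 fit of all 9 samples and quasi-likelihood tests with Benjamini-Hochberg adjustment. Replicate numbers were not used as a block. Log2 CPM had a prior count of 2, and exonic length was the deposited gene length. Named genes were all members, up to 3 genes with the smallest p of each list among those past the threshold, and the 2 genes most like each called member. TNFRSF10B and HTRA2 were added after their values were seen. BIRC2, BIRC6 and the genes that overlap members are also mentioned but are not counted among the other named genes. Members and lists were chosen with earlier results of these data known. The alternatives were DESeq2 size factors, total counts, the Wald test of DESeq2 1.42.0, no filter or filterByExpr, only the 6 samples of a comparison, the replicate block, each of the 9 samples left out and, added after seeing the data, a loess trend (span 0.4) with length removed. The code was tested on simulated data.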

Additional observations from a re-analysis of the deposited data

Results flagged for a closer look

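The change from day 7 to day 14, which is the difference between the effects against the same 2D samples, passed edgeR's test in 1 of 8 members and 13 of 35 other named genes. Over all tested genes, 14.5% were higher and 13.6% lower. Genes of the pathway lists were named by their smallest p over comparisons that include this one, except TNFRSF10B and HTRA2. Those were chosen after their values were seen. The count of all these genes therefore supports nothing. CASP8 was lower at day 14 by a log2 fold change of -0.64, a call that several left-out libraries end. Lower at day 14 were also CASP2 (-0.80), TNF (-0.70), CYLD (-0.53), AIFM1 (-0.79), LMNA (-0.55), TRAF1 (-0.88) and CD83 (-0.66). Higher at day 14 were CASP1 (0.93), TNFSF10 (1.13), ENDOG (1.94), BIRC7 (4.80), BCL2A1 (0.91) and ANXA4 (0.41). The calls of CYLD, LMNA and ANXA4 were lost in 4, 6 and 12 of 17 alternatives, while those of CASP1, CASP2, TNFSF10, TNF, AIFM1, ENDOG, BIRC7, TRAF1, BCL2A1 and CD83 held in all 17.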

How the results depend on the processing

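Of 408 values of the members under 17 alternatives, 381 kept their direction where called and their side of the threshold, 17 were no longer called and 10 were newly called; 0 called values changed sign. The calls of CFLAR and XIAP at both time points and of CASP9 at day 7 held throughout. At day 14, members called higher were 1 with total counts and 1 without a filter, in place of 3, and 1 to 4 with a sample left out. Between the time points, the count of members called lower, 1, became 0 with filterByExpr and with only the 6 samples, and was 0 to 1 with a sample left out. With only the 6 samples, members called lower at day 7 were 2. Over all genes, total counts gave 1603 called higher at day 14, in place of 2557, and the share called higher among calls was 37.6% at day 7 and 33.0% at day 14, in place of 51.1% and 52.5%. With only the 6 samples, 1124 genes were called lower between the time points, in place of 1834. With a sample left out, these counts were 1564 to 2845 higher at day 14, and 1193 to 2187 higher and 1092 to 2141 lower between the time points. In the pathway lists, 10 genes were called higher at day 14 with total counts, in place of 18, and 11 to 22 with a sample left out; between the time points, 5 were called lower with only the 6 samples, in place of 10, and 5 to 14 with a sample left out. The cause of these shifts was not tested. Same-numbered samples did not deviate together throughout: of 9 pairs, 2 had a correlation above 0.1, and the range was -0.1 to 0.185. Same-numbered pairs of 2D and day 14 had correlations of 0.185, 0.108 and 0.0931. Differently numbered pairs of these groups had -0.135 to 0.0399. The numbers were therefore not taken to pair the samples across all groups. With the replicate block, members called higher were 2 at day 7 and 3 at day 14, and 2939 genes were higher at day 7 and 2458 at day 14. No member lost or gained a call with the block. The differences between groups in the log2 ratios of members kept their sign with each sample left out. The chi-square per gene between replicates was 22.5 to 306 and highest within day 14.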
